A study of Homo sapiens with 24 samples.

Results

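The experiment described here asked which transcripts differ when the microRNA miR-143 is put into PC3 and DU145 cells. PC3 and DU145 are established human prostate cancer lines, PC3 from a bone metastasis and DU145 from a brain metastasis, and both grow without androgen. The members were the 2 arrays, 1 per line, on which RNA of miR-143-transfected cells was labelled with Cy5 and hybridised together with Cy3-labelled RNA of the same line transfected with a control miRNA. They are 2 of the 24 arrays of the series and 2 of the 8 of one array design. The other 6 arrays of that design were si-GOLM1 against a control siRNA in DU145 and PC3, miR-27b against control miRNA in the kidney cancer lines 786O and A498, and 786O cells treated with the chemokine CXCL10 for 12 h or 24 h against untreated cells. Transfections used Lipofectamine RNAiMAX, and the labels give no dose, no time and no arm of miR-143. Each line therefore had 1 array, treated RNA was in Cy5 on all 8, dyes were not swapped, and the 8 arrays shared 1 slide and 1 scan. No value below has a replicate check within a line, and every p-value rests on treating DU145 and PC3 as 2 replicates. Fits that include the miR-27b arrays treat 786O and A498 in the same way, and the fit over all 8 arrays so treats 12 h and 24 h of CXCL10.

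A mature miRNA guides an Argonaute protein to messenger RNAs that pair with its seed, the bases 2 to 8 from its 5′ end, and the paired mRNA is then translated less and usually degraded faster. MIR143 and MIR145 lie side by side and are transcribed together. The pair is abundant in smooth muscle and other mesenchymal cells and low in many epithelial tumours, and miR-143 has been studied mostly as an inhibitor of RAS and MAP kinase signalling, of glycolysis through hexokinase 2, and of the cytoskeleton.

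The sequences on which the target comparisons rest are those of both miR-143 arms and of miR-145-5p, which was put into the same lines on another array design. RefSeq (GRCh38.p14) places miR-143-3p at chr5:149428978-149428998, miR-143-5p at chr5:149428944-149428965 and miR-145-5p at chr5:149430661-149430683, all on the plus strand, with 1622 bases between the hairpins. The seed is in capitals.
hsa-miR-143-3p: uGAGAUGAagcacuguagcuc
hsa-miR-143-5p: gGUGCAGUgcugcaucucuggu
hsa-miR-145-5p: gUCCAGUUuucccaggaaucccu

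The 3 seeds differ, so each was searched for separately. The complement of the miR-143-3p seed reads TCATCTC in an mRNA, and a following A gives the 8-base match TCATCTCA. The array's probes are themselves stretches of the mRNA strand, and the windows below are 28 bases of such probes with the match in capitals (hg19, probe strand). They were chosen after the values were seen, as a selection of the probes that lay below 0 and below the 6 other arrays in both lines and held the 8-base match or, in ASAP3, the shorter CATCTCA, which lacks the pairing with base 8. Whether a match lies in a 3′ untranslated region was not determined.
ABHD14A, chr3:52015157-52015184, plus strand: actcctcattTCATCTCAcagacacaat
RNF6, chr13:26787314-26787341, minus strand: attggcaagtTCATCTCAgagaaagggg
PTPN23, chr3:47454697-47454724, plus strand: cttacactacatcatcaTCATCTCAtgc
HK2, chr2:75120349-75120376, plus strand: gaatagcaaaTCATCTCAaatccttgag
WASF3, chr13:27262726-27262753, plus strand: ttcaaaaattaacatttTCATCTCAgta
LMO4, chr1:87810504-87810531, plus strand: tgcctTCATCTCAgatttgttcatcaca
MAPK7, chr17:19286654-19286681, plus strand: ttctgcaggtTCATCTCAgacccacctt
ASAP3, chr1:23755287-23755314, minus strand: caaccactaaCATCTCAacttgccagtt

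Both arrays were of like quality. Of 58717 spots outside the controls, 536 in DU145 and 484 in PC3 carried an outlier flag and were left out, and none was saturated. Spots well above background made up 56.61% in Cy3 and 59.91% in Cy5 for DU145, and 55.95% and 56.47% for PC3. The scanner software attaches an error to each ratio, whose median was 0.21 on the log2 scale in each line, and probes printed 10 times had a median SD over their spots of 0.07 in each. Tested probes had to exceed background clearly in 1 or both channels on the DU145 array and again on the PC3 array, which left 25965 probes and, taking the brightest probe of a gene, 14735 genes. Of these, 13992 were well above background in all 4 channels.

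The labels were checked against marker genes in the control channel. All 6 epithelial markers, KRT8, KRT18, KRT19, EPCAM and CDH1 among them, were well above background in both lines. CTNNA1, the alpha-catenin gene that PC3 cells are known to have lost, was well above background in DU145 at an intensity of 7328 and not above background in PC3 at 3.64. Of 5 fibroblast markers 1 was above background in each line, DCN and COL1A2 not being so in either, and the summed level of the list was 43.0 in DU145 and 125 in PC3. Of 5 leukocyte markers 3 were above background in each line, with sums of 460 and 337, beside 189600 and 207000 for the epithelial list.

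Most genes moved little. A log2 ratio of 1.0 is a 2-fold difference, and 92.76% of the tested genes lay within 0.5 of 0 in DU145 and 91.38% in PC3. In DU145, 497 genes were below -0.5 and 570 above 0.5, and in PC3 the numbers were 612 and 658. Across the 14735 genes DU145 and PC3 correlated at Pearson's r 0.38 (Spearman 0.38), and each correlated with the 6 other arrays at r between 0.14 and 0.32 (Spearman 0.06 to 0.36, the highest being DU145 miR-143 with 786O miR-27b). These are descriptions across genes, which are not independent replicates, and the points share dye orientation, slide and base composition.

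By size alone, 147 genes (0.998% of those tested) were below -0.5 in both lines and 151 (1.02%) above 0.5 in both. With all 4 channels well above background the numbers were 93 and 70. The treated RNA was in Cy5 on every array, so dye and treatment cannot be told apart on one array, and part of the shared genes read alike without miR-143. Of the 147 lower genes, 42 (28.6%) were also below -0.5 on both si-GOLM1 arrays, 53 (36.1%) on both miR-27b arrays and 41 (27.9%) on both CXCL10 arrays, which is 25% of the 168 si-GOLM1 genes, 22.6% of the 235 miR-27b genes and 31.8% of the 129 CXCL10 genes. Of the 151 higher genes, 18 (11.9%) were above 0.5 on both si-GOLM1 arrays, 36 (23.8%) on both miR-27b arrays and 14 (9.27%) on both CXCL10 arrays, which is 13.1% of 137, 21.1% of 171 and 11.02% of 127 genes. LIN28A, an RNA-binding protein of stem cells, read -2.53 in DU145 and -2.71 in PC3, and between -3.18 and -1.35 on the other arrays. BTK, a kinase of B cells, read -2.75 and -2.37, and between -3.02 and -1.37 on the others. Both were chosen after their values were seen, as examples of ratios that were as low without miR-143.

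**Figure D1:**
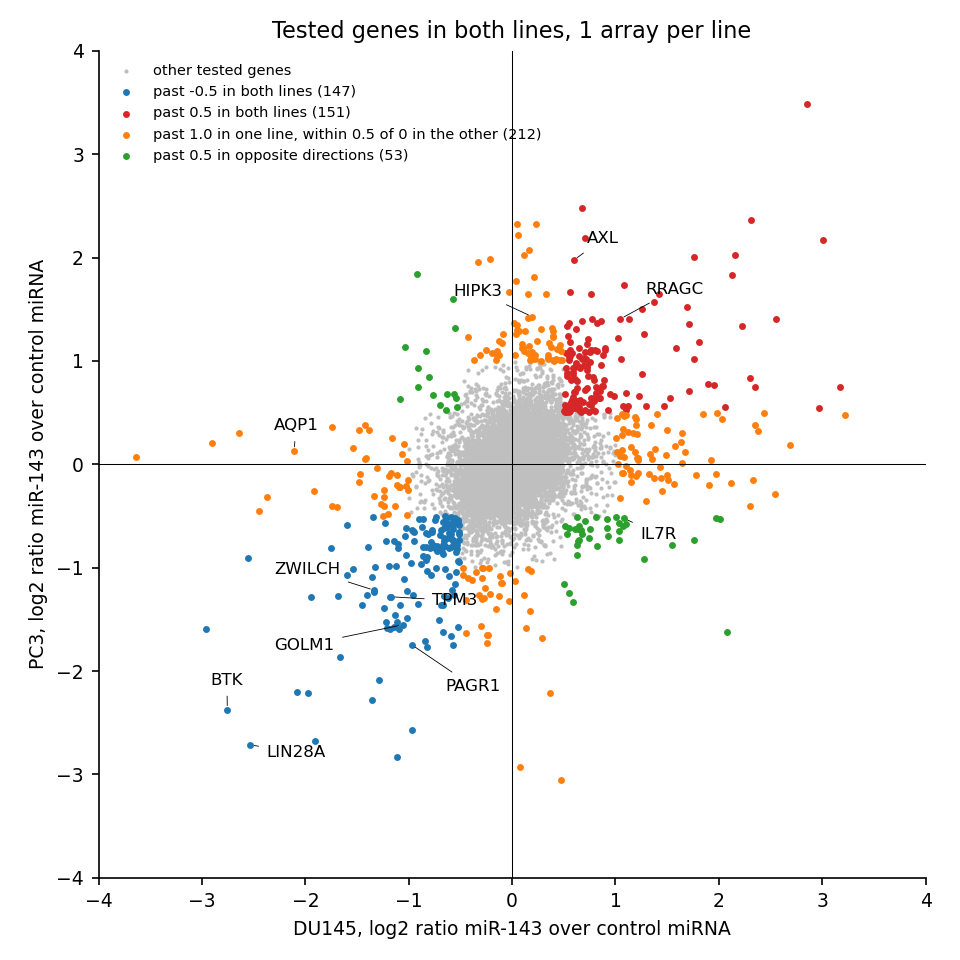
Log2 ratios of miR-143 over control miRNA for the 14735 tested genes, DU145 on the x axis and PC3 on the y axis, 1 point per gene and 1 array per line. Blue points are the 147 genes below -0.5 in both lines, red points the 151 above 0.5 in both, orange points the genes past 1.0 in one line and within 0.5 of 0 in the other, and green points the 53 past 0.5 in opposite directions; LIN28A and BTK, at the far lower left, read as low on arrays without miR-143.

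A gene's reading was therefore also set beside the 6 other arrays. Over all tested genes, both miR-143 values lay below all 6 in 968 genes (6.57%) and above all 6 in 937 genes (6.36%). Of the 147 genes lower in both lines, 70 also lay below all 6 others, which is 0.475% of all tested genes, and 56 of these were well above background in all 4 channels. Of the 151 higher genes, 67 lay above all 6 (0.455%), 24 of them in all 4 channels. This step was added after the data had been seen.

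The limma test of the mean of both miR-143 arrays against 0, fitted with the si-GOLM1 and miR-27b arrays over all 25965 tested probes, called 1 probe lower (0.00385% of those tested) and none higher at an adjusted p of 0.05, with 3977 probes below an unadjusted p of 0.05. The called probe belongs to LINC00189, a long non-coding RNA, and read -2.08 in DU145, -2.20 in PC3 and between -2.77 and -1.97 on the 6 other arrays. The contrast of miR-143 with the other transfections, in which a bias shared by all arrays cancels, called no probe (0% of those tested). Its smallest adjusted p was 0.357, and 2836 probes had an unadjusted p below 0.05. After normexp background correction and loess, which pull the ratios of dim spots towards 0, the same limma contrast called 65 probes (0.25% of those tested), 45 lower and 20 higher. The 45 fall on 39 named genes and unnamed transcripts, and 21 of the 39 were also below -0.5 in both lines. Of the 18 named genes higher, 1, ELL2, was above 0.5 in both lines. A call as higher is relative to the si-GOLM1 and miR-27b arrays. The 18 thus hold GOLM1, whose called probe read -0.75 in DU145 and -0.94 in PC3 with miR-143 after normexp.

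TPM3, which encodes a tropomyosin that coats actin filaments, was among the lowest of the bright genes. In DU145 its brightest probe had an intensity of 39470 with control miRNA and 17510 with miR-143, a log2 ratio of -1.17 with a software error of 0.23. In PC3 it went from 17300 to 7117, a log2 ratio of -1.28 with an error of 0.24. On the 6 other arrays the same probe lay between -0.10 and 0.33, so both miR-143 arrays stood below all of them, and with miR-145 it read -0.67 in DU145 and -0.44 in PC3. TPM3 had 6 tested probes, on chromosome 1 (hg19, minus strand). Of these, 4 were below -0.5 in both lines, another, at 154129866 to 154129925, read -0.86 in DU145 and -0.36 in PC3, and the last, at 154134291 to 154134350, read 0.04 and -0.17. One of the 4, at 154127945 to 154128004 and dimmer (241 and 64.1 in the control channels), read -1.02 and -1.05 with miR-143. With miR-145 that probe was lower, at -1.48 in DU145 and -2.06 in PC3, while the rest of the 4 were less low with miR-145 than with miR-143. The limma contrast of the brightest probe was -1.33 with a standard error of 0.13 and an adjusted p of 0.357, and its adjusted p over the settings tried ran from 0.0022, after normexp, to 0.36. TPM3 was the only one of 31 tested genes for actin filaments and adhesion past 0.5 in both lines in the same downward direction, and none of the 31 was higher in both. The other tropomyosins read -0.13 and 0.20 for TPM1, -0.03 and -0.10 for TPM2, and -0.18 and 0.03 for TPM4 in DU145 and PC3.

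GOLM1, a Golgi membrane protein, was lower in both lines as well. Its brightest probe went from 4247 to 2048 in DU145, a log2 ratio of -1.05, and from 858 to 293 in PC3, a log2 ratio of -1.55. A second GOLM1 probe read -0.77 and -1.18. With the siRNA against GOLM1 the first probe read -3.02 in DU145 and -4.15 in PC3, so the ratio with miR-143 was smaller in size than with the siRNA in each line. The same probe read -1.10 in 786O and -0.71 in A498 with miR-27b, 0.04 and 0.03 with CXCL10, and -0.51 in DU145 and 0.61 in PC3 with miR-145. GOLM1 thus read low with miR-27b as well, and because the siRNA arrays enter the mean of the others, the limma contrast for GOLM1 was positive.

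ZWILCH, a kinetochore protein of the mitotic checkpoint, went from 1007 to 400 in DU145 and from 497 to 214 in PC3. Its log2 ratios were -1.33 and -1.22, with the other 6 arrays between -0.36 and 0.08. The limma contrast was -1.19 with a standard error of 0.09 (adjusted p = 0.357, range over settings 0.00388 to 0.36).

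PAGR1, a subunit of a histone methyltransferase complex, went from 376 to 192 in DU145 and from 262 to 78.1 in PC3. Its log2 ratios were -0.97 and -1.75, and the other arrays lay between -0.15 and 0.21. On the miR-145 arrays PAGR1 read -0.11 in DU145 and -0.97 in PC3.

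EARS2, a mitochondrial glutamyl-tRNA synthetase, read -1.08 in DU145 and -1.36 in PC3, with the others between -0.27 and 0.21. ASAP3, a GTPase-activating protein for ARF proteins, read -1.18 and -1.29 with the others between -0.27 and 0.07. Its probe holds the 7-base match CATCTCA shown above, but a second, dimmer ASAP3 probe read -0.37 and 0.02. ASAP3 was weak, at 108 and 99.2 in the control channels, and the normexp ratios of ASAP3 were -0.61 in both lines.

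OIP5-AS1, a long non-coding RNA, had the smallest adjusted p of all probes after normexp in the limma contrast (0.0013, against 0.357 without normexp and up to 0.36 over the settings). That probe, at chr15:41591663-41591722, read -1.08 in DU145 and -1.30 in PC3. The brighter OIP5-AS1 probe read -0.59 and -0.71, and both probes were below all 6 other arrays.

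The remaining genes that were below -0.5 in both lines with and without normexp and also below the 6 other arrays were ABHD14A, ABHD5, CBFB, CLN6, DCTD, GID8, KLC2, MIEF1, NETO2, PLPBP, RNF6, SLC35B1, TAF10, UBXN2B and UTP18, which with the genes above other than GOLM1 make 21 of the 29 genes that were lower in both after normexp. SLC35B1, a transporter of the endoplasmic reticulum, read -0.78 in DU145 and -1.07 in PC3. DCTD, the deoxycytidylate deaminase of nucleotide synthesis, read -0.82 and -1.03. UTP18, a factor in ribosomal RNA processing, read -0.74 and -0.999.

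CBFB, the partner subunit of the RUNX transcription factors, read -0.65 and -0.79. GID8, a subunit of a ubiquitin ligase, read -0.54 and -0.80 while its values on the 6 other arrays were all above 0, between 0.17 and 0.66. TAF10, a subunit of TFIID, read -0.66 and -0.71 with the others between -0.10 and 0.19. MIEF1, a receptor for the mitochondrial fission machinery, read -0.66 and -0.74 with the others between -0.12 and 0.08, but 1 of its 3 tested probes read 0.10 and 0.05. KLC2, a kinesin light chain, read -0.55 and -0.85, while its 2 dimmer probes read -0.42 and -0.61, and 0.23 and -0.43. In all of them, on the brightest probe, the miR-143 values of both lines lay outside the range of the other arrays, as their selection required. ABHD5 lay closest to the others, at -0.57 and -0.53 against a lowest other value of -0.47.

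**Figure D2:**
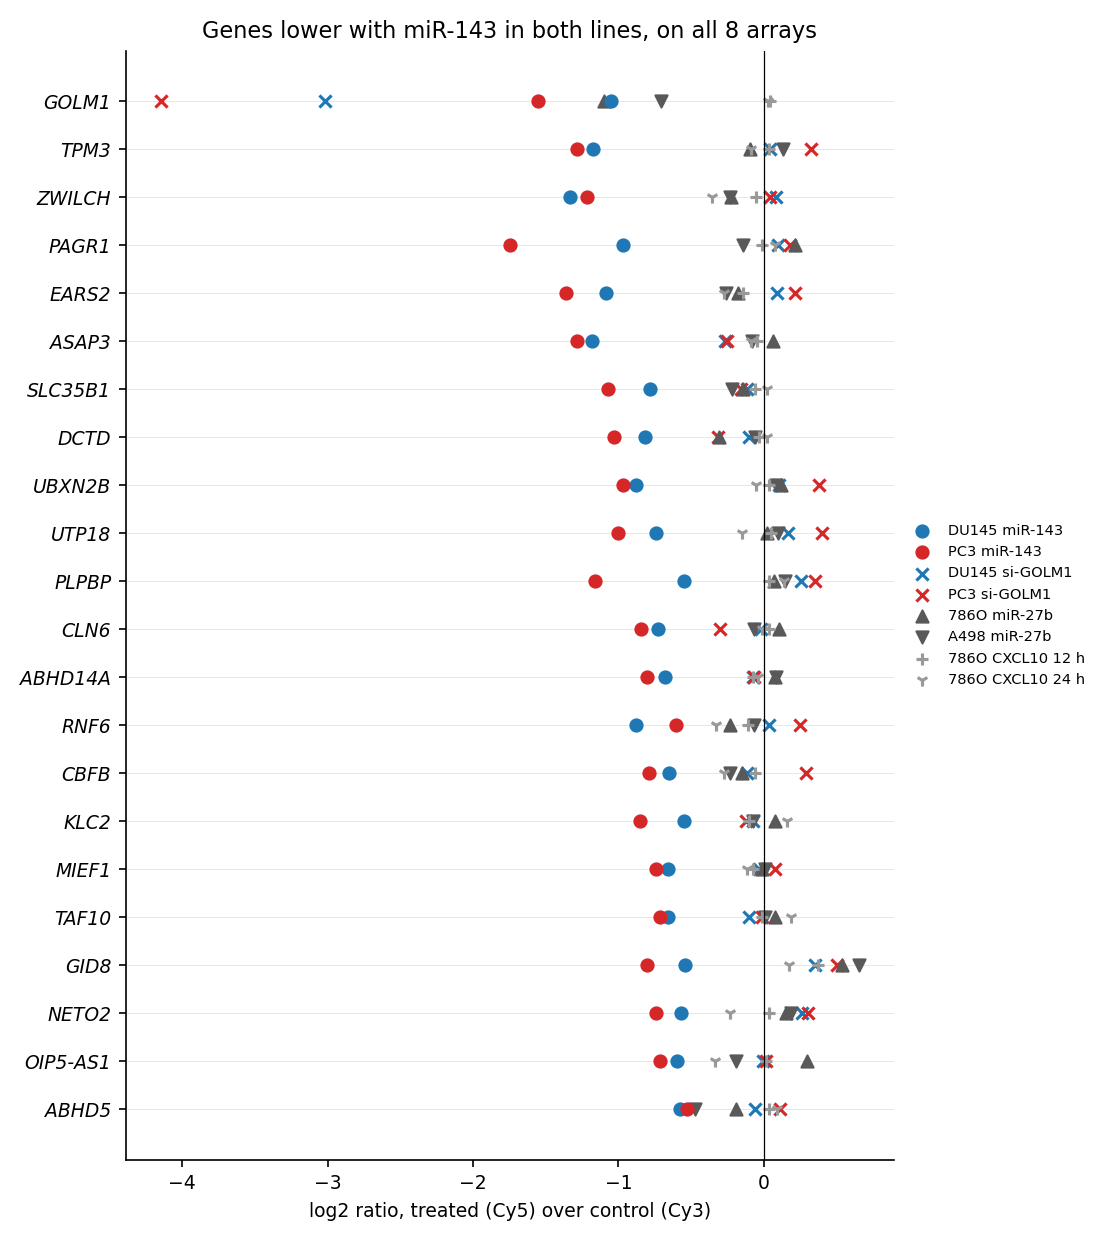
Log2 ratios of treated over control RNA for 22 genes (y axis) on the 8 arrays of the design (x axis), 1 symbol per array: filled circles are miR-143 in DU145 (blue) and PC3 (red), crosses si-GOLM1 in the same lines, triangles miR-27b and grey marks CXCL10. The genes other than GOLM1 were chosen for lying below the 6 other arrays in both lines. Both of their circles therefore lie left of the 6 other symbols. GOLM1 is lower still with its own siRNA, at -3.02 and -4.15.

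The rule for naming genes took the 10 largest mean falls past 1.0 in both lines with 4 channels above background, and it named several ratios that were also low on other arrays. TGM6 read -1.45 in DU145 and -1.36 in PC3 with the others between -2.08 and -1.37. RASL10B read -1.18 and -1.59 (others -1.93 to -0.19), C1QTNF5 -1.40 and -1.27 (others -3.37 to 0.01) and SLC7A14 -1.11 and -1.53 (others -2.27 to -1.01). STARD8 read -1.13 and -1.46 and with si-GOLM1 -0.99 and -1.35. TUB read -1.33 and -1.24 with the others between 0.00 and 0.46, but it was dim, at 46.2 in DU145, and its normexp ratios were -0.355 and -0.60. Together with GOLM1, TPM3, ZWILCH and ASAP3 these make the 10.

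Among higher genes, 2 passed 1.0 in both lines with 4 channels above background. RRAGC, a RAG GTPase that passes amino acid signals to mTORC1, read 1.05 in DU145 and 1.41 in PC3. GIPR read 1.05 and 1.02 but lay between 0.79 and 1.06 on the other arrays. RRAGC lay between -0.21 and 0.11 on the si-GOLM1 and CXCL10 arrays and at 0.88 and 0.93 with miR-27b.

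Genes with that pattern were then picked, after the values were seen. They numbered 16 of the 13992 genes with 4 channels above background. All were above 0.5 on the 4 arrays of the design that used control miRNA (miR-143 in DU145 and PC3, miR-27b in 786O and A498). On the 4 that did not, they were within 0.5 of 0. The same rule turned downward, below -0.5 on the control miRNA arrays, held in 3 genes. With miR-143 the median of the 16 was 0.69 in DU145 and 1.10 in PC3, and with miR-27b 0.71 in 786O and 0.82 in A498. On the si-GOLM1 and CXCL10 arrays it was between -0.02 and 0.10. That gap was required by the selection. On the miR-145 arrays, which also used control miRNA, 15 of the 16 were above 0.5 in PC3 and 6 in DU145, compared with 15.1% and 6.8% of the 14041 tested genes measured there. A ratio to control miRNA cannot tell a rise with miR-143 from a fall with the control miRNA, so for these genes the 2 cannot be told apart.

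AXL, a receptor tyrosine kinase of invasive cells, was the highest of the 16 in PC3. It went from 775 to 3047 in PC3, a log2 ratio of 1.98, and from 8351 to 12650 in DU145, a log2 ratio of 0.60. With miR-27b it read 0.57 in 786O and 1.75 in A498, and with miR-145 0.23 in DU145 and 2.21 in PC3. With si-GOLM1 in the same lines it read -0.19 and 0.03. CHPF, a chondroitin synthase subunit, read 0.86 and 1.38, but a second CHPF probe read -0.07 and -0.07. The values of 14 of the 16 genes were higher in PC3 than in DU145, as were 84 (55.6%) of the 151 genes above 0.5 in both lines and 48.4% of all tested genes.

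**Figure D3:**
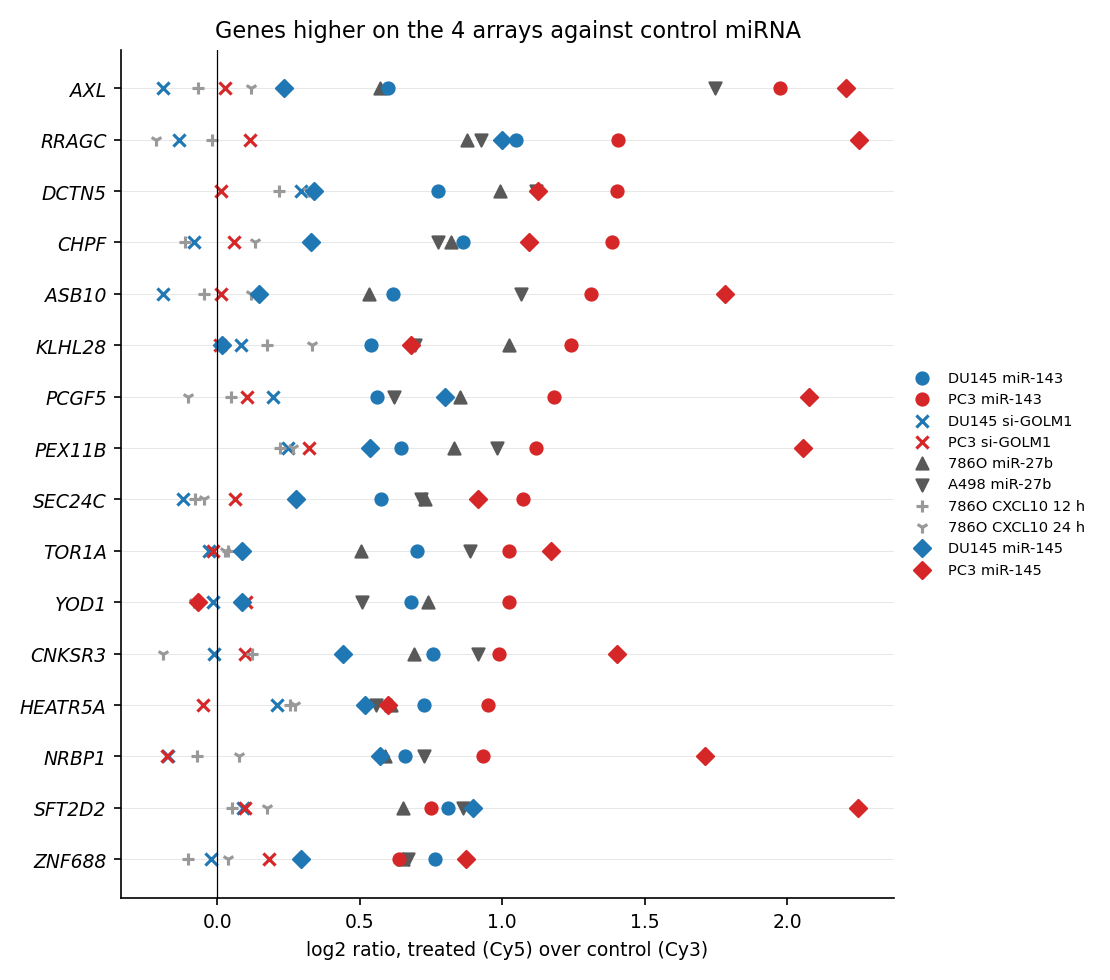
Log2 ratios of treated over control RNA (x axis) for the 16 genes above 0.5 on the 4 arrays of the design against control miRNA (y axis), 1 symbol per array; diamonds are the miR-145 arrays of the other design. The circles (miR-143) and triangles (miR-27b) lie between 0.50 and 1.98, while crosses (si-GOLM1) and grey marks (CXCL10) lie between -0.21 and 0.33. The genes were also picked for lying within 0.5 of 0 on the si-GOLM1 and CXCL10 arrays, so this gap was required by the selection.

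Of the 30 genes above 0.5 in both lines after normexp, 11 lay above all 6 others, among them ELL2 and NID1, and 3 of the 11 (CHPF, HEATR5A and RRAGC) belong to the 16. ELL2, an elongation factor for RNA polymerase II, read 0.72 in DU145 and 0.91 in PC3 with the others between -0.75 and 0.47 (limma contrast with adjusted p 0.36, range over settings 0.0245 to 0.36). NID1, the basement membrane protein nidogen, read 0.75 and 1.09 with the others between -0.22 and 0.35, and was at 0.75 and 1.87 with miR-145. Outside the 11, WBP1L read 0.55 and 1.37 with the others between -0.48 and 0.24. INSIG1, which holds back cholesterol synthesis, read 0.52 and 0.50 with the others between -0.16 and 0.34.

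Changes in one line alone were called past 1.0 in that line and within 0.5 of 0 in the other. In DU145 alone, 41 genes (0.278% of those tested) were lower and 69 (0.468%) higher. In PC3 alone, 37 (0.251%) were lower and 65 (0.441%) higher. Of these, 18, 22, 12 and 17 had all 4 channels above background. With 1 array per line the difference between the lines was not tested for any gene, and after normexp the 4 counts were 0, 1, 0 and 3.

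In DU145 alone the lowest named gene was AQP1, the water channel aquaporin 1, at -2.11 in DU145 and 0.13 in PC3. After normexp AQP1 read -0.97 in DU145, and its other tested probe was the lower one in PC3 instead, at -0.12 in DU145 and -1.17 in PC3. The others named by the rule were IFNA7 at -1.48, ZBTB8B at -1.42, CTAGE10P at -1.33 and TSPAN2 at -1.25, and they read between -0.55 and -0.35 after normexp. On the higher side NECTIN4, a cell adhesion protein, read 1.51 in DU145 and -0.15 in PC3, SETBP1 1.34 and 0.10 (its other probe -0.85 and -0.26), IRX2 1.21 and 0.06, and LOC100507412 1.21 and 0.04. The control intensities in DU145 were between 15.3 and 31.1 for the first 3 of these, and IRX2 read 0.44 in DU145 after normexp. LOC100507412, at 131, kept a ratio of 0.97 after normexp but read 1.21 on the PC3 si-GOLM1 array.

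In PC3 alone the lower genes CALML6, UBE2E4P, SLC25A2, PSG8 and ZBTB7C read between -1.56 and -1.15 in PC3 and between -0.59 and -0.41 after normexp. SLC25A2 was at -0.43 or lower on all 6 other arrays. Among the higher genes ANKRD46 went from 221 to 541 in PC3, a log2 ratio of 1.29, with 0.39 in DU145. After normexp ANKRD46 read 1.09 in PC3 and 0.31 in DU145. HIPK3, a kinase of the homeodomain-interacting family, read 1.43 in PC3 and 0.19 in DU145, and UBE2R2, a ubiquitin-conjugating enzyme, 1.23 and 0.40. On the miR-145 arrays HIPK3 read 1.47 in PC3 and -0.22 in DU145, ANKRD46 0.84 and 0.36, and UBE2R2 0.82 and 0.18. These 3 genes were thus also higher in PC3 than in DU145 with another miRNA against control miRNA. LOC100132077 at 1.19 and MIR181A1HG at 1.17 complete the 5.

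Opposite directions past 0.5 were found in 53 genes (0.36% of those tested), 14 of them with all 4 channels above background, and in 0 genes after normexp. IL7R, the interleukin-7 receptor, read 1.08 in DU145 and -0.52 in PC3. HOXA7, a homeobox transcription factor, read 0.64 and -0.74. CTSZ, a lysosomal cathepsin, read 0.81 and -0.51, but its si-GOLM1 values were 0.49 in DU145 and -0.53 in PC3. After normexp CTSZ read 0.75 and -0.49, just inside the limit in PC3, and its other tested probe read 0.11 and 0.19.

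Of 28 genes reported as miR-143 targets, listed from memory of the literature, 24 were tested. IGFBP5, MACC1, PTGS2 and MMP13 were not. Their median log2 ratio was -0.15 in DU145 and 0.01 in PC3, beside 0.01 and 0.00 over all tested genes. Of the 24, 2 were below -0.5 in both lines (GOLM1 and ELK1), none was above 0.5 in both, and 12 were below 0 in both, compared with 147, 151 and 4665 of all 14735. The series also holds a GOLM1 knock-down in these lines. Whether GOLM1 was reported as a target independently of these arrays was not determined.

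Among the kinases and transcription factors of the MAP kinase pathway, MAPK7 (ERK5), whose probe holds the 8-base match, read -0.24 in DU145 and -0.43 in PC3 with the others between -0.03 and 0.16. HRAS read 0.17 and 0.11. ELK1, a transcription factor phosphorylated by ERK, read -0.52 and -0.54 on its brightest tested probe, but that probe lay between -0.65 and -0.01 on the other arrays and was dim, and the 3 tested ELK1 probes averaged 0.46 in DU145. The values of the other members of this pathway were small: of 19 tested genes of RAS and ERK signalling, ELK1 was the one past 0.5 in both lines, and the list's median was -0.09 in DU145 and -0.03 in PC3. Genes induced by ERK, of which 18 were tested, had medians of -0.17 and 0.01 with none past 0.5 in both. Among them CCND1 (cyclin D1) read -0.45 and -0.33 and MYC -0.17 and -0.37.

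HK2, the hexokinase that starts glycolysis in tumour cells, read -0.38 in DU145 and -0.74 in PC3 on the probe with the match shown above. Both values lay below those of the other arrays, which ran from -0.19 to 0.39. Its paralog HK1 read 0.21 and 0.38. Over 21 tested glycolysis genes the medians were -0.03 and -0.02, and none passed 0.5 in both lines.

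Of the receptors and adhesion genes, IGF1R read -0.41 and -0.48 with the others between -0.35 and 0.67, and ITGA6, an integrin subunit, -0.22 and -0.30 with the others between -0.09 and 0.39. ADD3, an adducin of the membrane skeleton, read -0.68 in DU145 and -0.19 in PC3. FSCN1 (fascin), which bundles actin, read -0.35 and -0.64 with miR-143 and -2.30 and -3.57 with miR-145 in DU145 and PC3. LIMK1, a kinase that acts on cofilin, read -0.33 and -0.86, within the -1.22 to 0.76 of the other arrays. Both miR-143 values lay below all 6 other arrays in 6 of the 24: ADD3, FSCN1, HK2, IGF1R, ITGA6 and MAPK7. Over all 14735 tested genes this held in 968 (6.57%). DNMT3A read 0.20 and 0.07, and BCL2, dim at 12.8 in DU145, read 1.58 and 0.18.

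**Figure D4:**
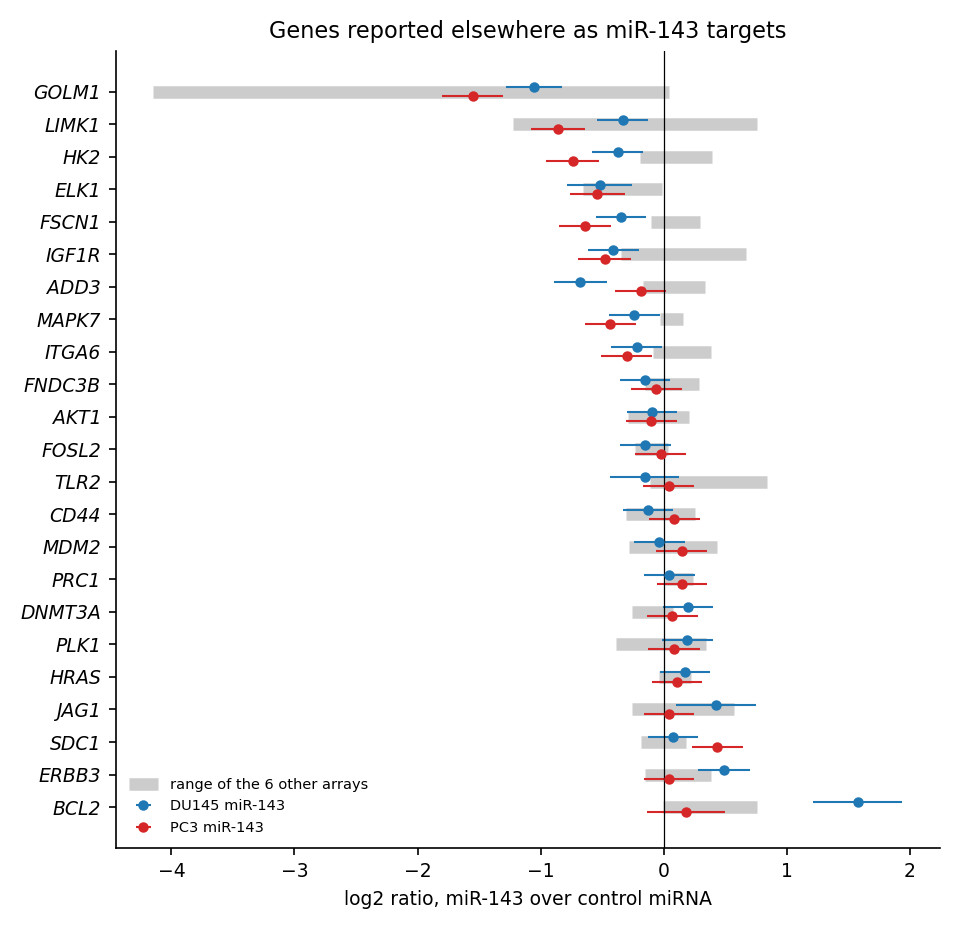
Log2 ratios of miR-143 over control miRNA (x axis) for tested genes listed as miR-143 targets (y axis), DU145 in blue and PC3 in red, with bars for the error given by the scanner software and grey bands for the range of the 6 other arrays. GOLM1, LIMK1 and HK2 are at the top, and ADD3, FSCN1, HK2, IGF1R, ITGA6 and MAPK7 have both points left of their bands.

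Probes with a seed match were few. The 8-base match TCATCTCA was in 39 of the 25965 tested probes (0.150%), and their median log2 ratio was -0.13 in DU145 and -0.21 in PC3, beside 0.02 and 0.01 for probes without it. Of the 39, 53.8% were below 0 in both lines, compared with 28.99% of all tested probes, and 3 (7.69%) were below -0.5 in both, compared with 359 of all (1.38%), while 1 was above 0.5 in both. These 3 were the pair of ABHD14A probes, which hold the same match, and RNF6.

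Medians lay closer to 0 for shorter matches. The 7-base match TCATCTC, 8-base matches included, was in 156 probes (0.601%) with medians of -0.02 and -0.09 and 3 lower and 4 higher in both lines, and in the 117 of these without the A the medians were 0.01 and -0.06. CATCTCA, again with the 8-base matches, was in 147 probes (0.566%) with medians of -0.05 and -0.07, and 6 (4.08%) were below -0.5 and 4 above 0.5 in both lines. One of the 6, in COQ5, read -1.34 and -1.40 and was lower still on the 6 other arrays, from -2.32 to -1.58. The same 7 letters on the other strand, GAGATGA, were in 184 probes (0.709%) with medians of -0.01 and 0.01. The match to the miR-143-5p seed, ACTGCAC, was in 91 probes (0.3505%) with medians of 0.11 and -0.04, and that to miR-145-5p, AACTGGA, in 195 (0.751%) with medians of -0.02 and -0.04. On the other arrays of the design the 39 probes with the 8-base match had medians between -0.09 and 0.11. Probes cover a short stretch of each transcript, so a gene whose probe lacks the match may hold one elsewhere, and these medians were not tested.

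Of the genes whose windows are shown, ABHD14A read -0.68 in DU145 and -0.81 in PC3, with the other arrays between -0.07 and 0.09 and an adjusted limma p for the contrast of 0.36 (range over settings 0.00939 to 0.36). RNF6, a ubiquitin ligase, read -0.88 and -0.60 with the others between -0.33 and 0.25, but its other tested probe, without the match, read -0.34 and 0.37. PTPN23, a phosphatase-like protein of endosomal sorting, read -0.49 and -0.73. WASF3, which drives actin branching, read -0.41 and -0.65, and LMO4, a LIM-domain transcription cofactor, -0.41 and -0.65. On the probes with the match both miR-143 values lay below the 6 other arrays, as the choice of these windows required.

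Gene groups that define cell state showed small medians. Over all 14735 tested genes, 4665 were below 0 in both lines. Of 24 tested genes of DNA replication, none was past 0.5 in both lines, 17 were below 0 in both, and the median was -0.11 in DU145 and -0.14 in PC3. RRM2, the ribonucleotide reductase subunit, read -0.65 and -0.45 with the others between -0.32 and 0.81, and 0.08 and -0.15 on another probe. MCM4, of the replicative helicase, read -0.49 and -0.42 with the others between -0.35 and -0.07. Of 25 mitosis genes, 15 were below 0 in both and none was past 0.5 in both (medians -0.08 and -0.17). KIF11, the spindle motor, read -0.42 and -0.46.

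Interferon-induced genes, which cells switch on when they sense viral or other double-stranded RNA, were read beside the miR-145 arrays of the same lines, which are of another array design. Of 28 tested interferon genes, all 28 were above 1.0 in both lines with miR-145, with medians of 4.12 in DU145 and 4.06 in PC3, compared with 2.08% of all tested genes above 1.0 in both and medians of -0.03 and -0.06. With miR-143 the medians were -0.24 and -0.09, and 20 of 28 were below 0 in both, compared with 4665 of 14735. On the other arrays of the design the list median ran from -0.55 (PC3 si-GOLM1) to 0.20 (A498 miR-27b). Several of these genes were bright with control miRNA on the miR-143 arrays, such as ISG15 (39490 in DU145 and 45900 in PC3) and MX1 (3834 and 20250). Others were dim in DU145, such as BST2 (26.0) and IFI44L (23.2). A ratio near 0 cannot tell no response from a response to control miRNA and miR-143 alike. IFIT1, an interferon-induced RNA-binding protein, read 4.69 and 5.40 with miR-145 and -0.29 and -0.11 with miR-143. IFIT3 was the one interferon gene past 0.5 in both lines with miR-143, at -0.95 and -0.74, with PC3 si-GOLM1 at -0.76. The difference between the 2 experiments was not tested.

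The chemokines that attract neutrophils read higher in PC3 than in DU145 on their brightest probes, a difference that was not tested. CXCL8 (interleukin-8) read 0.04 in DU145 and 0.72 in PC3 on its brightest probe, CXCL1 0.29 and 0.71, CXCL2 0.10 and 0.65 and CXCL3 0.12 and 0.59. A second and dimmer CXCL8 probe read 2.07 in DU145 and 0.85 in PC3 and between -1.12 and 1.51 on the others. Its control intensity was 3.61 in DU145, near background, and 125 in PC3. The CXCL8 probes thus differ in DU145, where the second rests on a value near background, and read alike in PC3. The second probes of CXCL1 (0.13 and 0.83) and CXCL2 (0.03 and 0.69) read like the first. For the brightest probe of each of the 4, the PC3 value was above those of the 6 other arrays of the design, whose highest was 0.37. On the miR-145 arrays the same probes read 0.40 in DU145 and 1.79 in PC3 for CXCL8, and 0.49 and 1.04 for CXCL1. For CXCL2 they read 0.42 and 0.04, and for CXCL3 0.18 and -0.10. CCL20 read -0.54 and -0.82 and was dim. Of 15 tested genes of the NF-kB list, CCL20 was lower in both lines and none was higher in both, and the medians were -0.02 in DU145 and 0.33 in PC3.

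Of 13 genes of the miRNA machinery, AGO4 (1.10 in DU145 and 0.52 in PC3) and TNRC6C (0.67 and 0.50) were past 0.5 in both lines. TNRC6C lay between 0.40 and 0.98 on the other arrays, and AGO4 was dim, at 20.04 in DU145. DICER1, the nuclease that cuts precursor miRNAs, read 0.37 and 0.66 with the others between -0.24 and 0.24. AGO2 read 0.19 and 0.15.

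Further lists held few genes past 0.5 in both lines. Among 20 tested cholesterol synthesis genes INSIG1 was the one that was higher, and none of 20 genes of IGF and AKT signalling, 11 of epithelial-mesenchymal transition, 16 of the BCL2 family, 16 of the ATF4 stress response or 11 of DNA methylation was past 0.5 in both lines. Of the markers, KLK3 read 0.87 in DU145 and 0.76 in PC3 but was at 19.5 and 18.97 in the control channels, near background. The remaining tested markers of prostate lumen, leukocytes, fibroblasts and endothelium were not past 0.5 in both lines. All 6 epithelial markers were slightly below 0 in both (medians -0.20 and -0.12), compared with 4665 of all 14735 tested genes. The list median was also below 0 with si-GOLM1, at -0.12 in DU145 and -0.19 in PC3. On the miR-27b and CXCL10 arrays it lay between -0.09 and 0.05.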

How the data were processed

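RNA of PC3 and DU145 cells transfected with miR-143 or a control miRNA was labelled by the authors with Cy5 and Cy3 and hybridised to Agilent two-colour arrays. The authors extracted the spots with Agilent Feature Extraction 10.7.3.1. The deposited scanner files hold log10 ratios (Cy5 over Cy3, background-subtracted and dye-normalised by that software) and the intensity of each channel, and the deposited value table repeats the same log10 ratios. Per the file headers, probes are placed on hg19.

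Here spots without an outlier flag were averaged per probe and the log10 ratio was multiplied by 3.3219, giving log2 ratios computed from the deposited values. Gene names came from RefSeq through accessions, with 31448 of 50599 probes matched to 21375 genes. Log2 ratios were called by size (0.5 in both lines, or 1.0 in one), and tested over 6 transfection arrays with limma 3.58.1 (R 4.3.3; Benjamini-Hochberg, 0.05; two-sided). Alternatives were normexp (offset 50) with loess, no background correction with loess, median centring, subtraction of the other arrays, other filters, limits, arrays and probe averaging. In simulated data, 200 of 25957 probes were shifted by 1 or 2 on the log2 scale in miR-143. The limma contrast recovered 113 with 6 false calls at 1, and 180 with 7 at 2. With normexp it recovered 200 each time with 22 and 12 false calls. Noise was drawn from a normal distribution around 1 mean per probe. The shifts were added to processed values, so the shrinking of dim ratios by normexp was not simulated. Recovery with and without normexp can therefore not be compared. Genes named were all listed targets, the 10 largest mean falls and rises past 1.0 in both lines, the 5 largest each way in 1 line alone, and list members past 0.5 in both. Other genes were chosen after their values were seen, and some genes that these rules name are not reported here. The members and lists were chosen with earlier results of these data known.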

Additional observations from a re-analysis of the deposited data

Results flagged for a closer look

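In 53 genes the 2 lines went past 0.5 on the log2 scale in opposite directions with miR-143, and the difference between the lines was not tested, since each had 1 array. The named genes with all 4 channels above background included IL7R (1.08 in DU145 and -0.52 in PC3), HOXA7 (0.64 and -0.74), CTSZ (0.81 and -0.51) and LXN, a carboxypeptidase inhibitor (0.61 and -0.63). After normexp and loess none of the 53 was past the limit in both lines. On the si-GOLM1 arrays CTSZ read 0.49 in DU145 and -0.53 in PC3, and with miR-145 LXN read 0.44 and -2.19.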

How the results depend on the processing

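Counts are given as lower in both lines, higher in both, lower and higher in DU145 alone, lower and higher in PC3 alone, and opposite, from 147, 151, 41, 69, 37, 65 and 53. They were 29, 30, 0, 1, 0, 3 and 0 with normexp and loess. They were 40, 34, 3, 2, 1, 5 and 1 with no background correction and loess. Probes above background in all 4 channels gave 93, 70, 19, 22, 12, 17 and 14. No filter on dim probes gave 432, 409, 454, 299, 248, 276 and 374. Limits of 1.0 and 1.5 gave 34, 22, 11, 23, 10, 12 and 2. The demand to lie outside the 6 other arrays, added after the data were seen, left 70 and 67. Median centring, subtraction of the other arrays and the mean over probes kept these counts within 1.5 times, but 64 of the 147 and 56 of the 151 genes were kept when the other arrays were subtracted. The limma mean called 1 probe lower and 0 higher, 27 and 12 over all 8 arrays, 0 lower with the 2 miR-143 arrays alone, with 4 channels or with no filter, 331 and 362 with normexp, and 227 and 209 with no background correction. The limma contrast called 0 and 0, 45 and 20 with normexp, and 13 and 2 with no background correction, 0 and 0 with all 8 arrays, centring, 4 channels or no filter, and it has no value with the 2 miR-143 arrays alone. The targets' median stayed between -0.17 and -0.09 in DU145 and between -0.08 and 0.03 in PC3.

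Signs turned after subtraction of the other arrays for C1QTNF5 (0.26 in DU145 and 0.40 in PC3), SLC7A14 (0.48 and 0.0659), TGM6 (0.24 and 0.32), GOLM1 in DU145 (0.43), RASL10B in DU145 (0.12) and TNRC6C in PC3 (-0.10), by that setting's construction, since those arrays read as low or as high. ELK1 turned to 0.46 in DU145 with the mean over its probes, which disagree. The cause of the other shifts was not tested. The miR-143 and si-GOLM1 arrays are paired by cell line in the labels, although their deviations correlated at -0.02, and at -0.09 after normexp. A limma contrast of miR-143 with si-GOLM1 over these 4 arrays, added after the data were seen, called 0 probes lower and 0 higher without and with the line as a replicate block (2665 probes below an unadjusted p of 0.05 with the block). After normexp it called 35 lower and 26 higher, and 241 and 153 with the block, which leaves 1 residual degree of freedom. MiR-27b was given to other lines and has no pair. Precision is limited by the number of arrays and, for dim probes, by signal over background.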
